A study of Homo sapiens with 6 samples.

Results

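The widest H3K4me3 promoter peaks of control OCI-AML3 cells were described. Trimethylation of lysine 4 of histone H3 (H3K4me3) was mapped by ChIPmentation, in which antibody-bound chromatin is tagmented on beads. A member was a peak of the sgNeg H3K4me3 list on chromosomes 1 to 22 and X with a merged width of at least 2000 bp and the start of a protein-coding gene inside it or within 1 kb of it. No rows overlapped, so none were merged. There were 360 members among 353578 peaks, which was 2.16% of the 16660 peaks at a protein-coding gene start. They carried 431 of 19617 protein-coding genes (2.2%), whereas 12712 genes (64.8%) had a promoter peak of any width. Because the members were chosen by width in the sgNeg H3K4me3 library, their widths and enrichments there are descriptions and were not tested.

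OCI-AML3 is an established human acute myeloid leukemia (AML) line that carries a mutant nucleophosmin gene (mtNPM1) together with mutations of DNMT3A and NRAS. Cells received a control guide RNA (sgNeg) or the guide RNA sgNpm1A, directed against mtNPM1, and per the labels were kept for 3 days, although the study's text gives a longer time. The 6 samples formed 6 groups with a library apiece: H3K4me3, acetylation of lysine 27 of histone H3 (H3K27Ac) and input for each guide RNA. The 4 peak lists were used, and both inputs stayed out. As no group had a replicate, the spread between cultures is unknown, p-values were not computed, and each contrast is one of a pair of libraries. The 95% Wilson intervals cover counting error only.

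H3K4me3 is deposited by SET1 and MLL (KMT2) complexes at active promoters, most of which lie in CpG islands, and it is read by factors that recruit the transcription machinery. In most genes the mark is a short stretch that begins at the first nucleosomes downstream of the start. A small set of genes in each cell type carries it over a much longer stretch into the gene body, and such broad domains are known to be frequent at genes of cell identity, at tumour suppressors and at genes with steady high transcription. In AML with mtNPM1, the HOXA and HOXB genes and MEIS1 are kept active with the help of menin and MLL.

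The sgNpm1A H3K4me3 library stood apart from the sgNeg library, and this bears on all that follows. It had 106629 peaks, and 1.76% of all protein-coding gene starts lay under one, beside 1.83% of all bases of the chromosomes. In sgNeg, 11.4% of gene starts lay under a peak, beside 3.09% of the bases. Of 85 cytosolic ribosomal protein genes, which every cell uses, 84 had a sgNeg peak within 1 kb of the start and 2 a sgNpm1A peak (2.35%). Within the same 1 kb, 64.8% of all protein-coding genes had a sgNeg peak and 7.68% a sgNpm1A peak. The sgNpm1A peaks therefore showed no excess at gene starts, where this mark is found in other cells. Fewer marked promoters and a library with less enrichment cannot be told apart from 1 library. The background pileup, the mean fragment count per base as recovered from the fold values, was 3.81 in sgNeg and 2.93 in sgNpm1A. The lowest pileup at a peak was 11 and 10 fragments. No sgNeg peak was narrower than 110 bp and no sgNpm1A peak narrower than 245 bp, and the median widths were 192 and 407 bp. With unlike smallest widths, counts, pileups and widths of peaks are not like measures between these lists. A difference in depth between the libraries was not tested.

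Sequences of 7 promoters are given below to show how differently built the starts of the members were. Each is the 250 bases before the gene start on the gene's own strand, from RefSeq (GRCh38.p14), with every CG dinucleotide in capitals. For 6 gene groups the promoter of a gene with a wide peak to itself was taken whose entry has the start of the gene record, which was not always the widest of its group, namely GFI1 (a haematopoietic repressor of transcription, chr1:92486926-92487175, minus strand), HOXA13 (a homeobox factor, chr7:27200092-27200341, minus strand), KMT2D (an H3K4 methyltransferase, chr12:49060795-49061044, minus strand), RPS21 (a ribosomal protein, chr20:62386853-62387102, plus strand), HNRNPD (an RNA-binding protein, chr4:82373992-82374241, minus strand) and TNFRSF1A (a receptor of tumour necrosis factor, chr12:6342077-6342326, minus strand). NKD2 (an antagonist of Wnt signalling, chr5:1008552-1008801, plus strand) was the member with the largest share of bases under sgNpm1A peaks.

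GFI1: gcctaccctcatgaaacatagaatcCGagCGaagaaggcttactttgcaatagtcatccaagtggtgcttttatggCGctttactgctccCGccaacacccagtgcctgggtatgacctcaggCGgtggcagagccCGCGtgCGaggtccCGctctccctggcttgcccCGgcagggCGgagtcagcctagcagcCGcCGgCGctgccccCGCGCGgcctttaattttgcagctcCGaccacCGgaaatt
HOXA13: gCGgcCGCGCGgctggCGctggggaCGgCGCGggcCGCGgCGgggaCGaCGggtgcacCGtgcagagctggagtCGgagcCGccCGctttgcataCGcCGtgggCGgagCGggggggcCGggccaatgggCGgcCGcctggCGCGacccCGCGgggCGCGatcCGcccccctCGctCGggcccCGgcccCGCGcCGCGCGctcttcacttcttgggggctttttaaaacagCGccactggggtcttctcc
KMT2D: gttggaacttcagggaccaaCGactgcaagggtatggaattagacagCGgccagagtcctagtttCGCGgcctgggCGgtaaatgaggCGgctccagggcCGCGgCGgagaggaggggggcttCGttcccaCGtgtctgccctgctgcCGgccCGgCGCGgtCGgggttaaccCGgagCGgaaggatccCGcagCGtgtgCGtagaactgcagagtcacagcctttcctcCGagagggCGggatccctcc
RPS21: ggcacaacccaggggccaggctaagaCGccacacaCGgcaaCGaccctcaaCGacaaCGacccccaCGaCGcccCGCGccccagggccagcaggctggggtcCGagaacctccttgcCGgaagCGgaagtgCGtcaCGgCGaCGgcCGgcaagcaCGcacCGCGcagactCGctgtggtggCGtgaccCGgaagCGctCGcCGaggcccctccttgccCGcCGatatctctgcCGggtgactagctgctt
HNRNPD: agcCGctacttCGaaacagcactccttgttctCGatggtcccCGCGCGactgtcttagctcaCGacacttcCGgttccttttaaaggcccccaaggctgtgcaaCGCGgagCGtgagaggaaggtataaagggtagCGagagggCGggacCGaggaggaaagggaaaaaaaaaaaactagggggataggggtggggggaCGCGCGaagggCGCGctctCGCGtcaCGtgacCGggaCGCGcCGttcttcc
TNFRSF1A: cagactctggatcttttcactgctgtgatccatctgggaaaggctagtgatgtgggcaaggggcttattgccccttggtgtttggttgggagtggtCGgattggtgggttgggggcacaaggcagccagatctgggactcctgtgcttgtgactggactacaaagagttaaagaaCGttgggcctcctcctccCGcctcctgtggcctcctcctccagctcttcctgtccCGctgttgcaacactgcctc
NKD2: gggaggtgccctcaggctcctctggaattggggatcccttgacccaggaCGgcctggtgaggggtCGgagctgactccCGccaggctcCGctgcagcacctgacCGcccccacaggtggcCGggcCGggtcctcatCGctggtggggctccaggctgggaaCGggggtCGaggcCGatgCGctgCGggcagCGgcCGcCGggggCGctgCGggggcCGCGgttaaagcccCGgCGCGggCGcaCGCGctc

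HOXA13 held 40 CG dinucleotides in these 250 bases, RPS21 29, HNRNPD and NKD2 26 each, KMT2D 23, GFI1 19 and TNFRSF1A 4. A peak of 2791 bp thus began 60 bp downstream of the start at the CpG-poor TNFRSF1A promoter, and one of the same width lay upstream of the CpG-dense promoter of NKD2. RefSeq promoter windows of 300 bases (250 before to 50 after the start) were at hand for 329 of the 431 genes with a wide peak. Their median CpG ratio, observed over expected from the C and G content, was 0.878, and 89.4% reached 0.6. It was 0.825 in 10015 genes with a narrower peak, 0.883 in the 2697 of these whose peak was 1000 bp wide or more, and 0.478 in 5467 genes without a promoter peak. Above 1000 bp the width of the peak thus went with no further gain of the CpG ratio. The GC box (GGGCGG, on either strand) was in 71.7% of the promoters of genes with a wide peak, in 74.8% of those with a narrower peak of 1000 bp or more and in 58.5% of all 15811 windows. The ETS core (CGGAAG, on either strand) was in 36.2%, 38.8% and 25.6%, so that neither was more frequent at wide peaks than at those next in width. The CCAAT box (CCAAT, on either strand) was in 36.2%, 37.6% and 36.3%. The TATA box (TATAAA, on either strand) was in 9.73%, 4.82% and 9.64%, and in 15.7% of windows of genes without a promoter peak. It was thus more frequent at wide peaks than at those next in width, and near the share of all windows. Among the 10 wide ribosomal protein promoters with an entry, 6 held the ETS core and 3 the GC box. The letters can match in one window for several motifs, and a match does not show a bound site.

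The members were 2000 to 5952 bp wide, with a median of 2372 bp. There were 220 below 2500 bp, 60 of 3000 bp or more and 18 of 4000 bp or more. The limit was not a gap in the distribution. CRIM1 (2006 bp), ADSS2 with CATSPERE (2000 bp) and ABCA2 (2000 bp) lay just inside it, and LAT (1998 bp), TMEM259 (1997 bp) and DVL3 (1997 bp) just outside. The 16300 narrower promoter peaks had a median of 445 bp. Fold enrichment at the summit was 4.78 to 19.6 in the members, with a median of 11.0, and the pileup was 22 to 93 fragments. The narrower promoter peaks had a median fold of 4.58.

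The members lay on the downstream side of the gene start. In 288 members with 1 coding start, the peak began a median of 56 bp downstream of the start and reached 2416.5 bp into the gene, and 273 reached further downstream than upstream. The start itself was inside the peak in 97 of them (33.7%), the whole peak was downstream in 184 (63.9%) and upstream in 7 (2.43%). Of the 14104 narrower peaks with 1 start, 11.0% held the start, 62.6% were downstream and 26.4% upstream. Of the 184 downstream members, 98 had another sgNeg peak that reached into the 1 kb upstream of the start, and the gap between the peaks had a median of 413 bp. Coverage over these genes fell to 25.8% of bases 200 to 100 bp before the start, rose to 53.4% in the 100 bp after it and to 98.1% at 1.0 kb. The bases printed above therefore lie for the most part in the stretch that the wide peaks left free. By the rule, each of the 184 downstream members must cover the stretch from 1.0 to 2.0 kb after the start. The high coverage there thus follows largely from the choice of members. For 71 members the peak belonged to 2 coding starts, and for 1 member to 3, namely EME2, MRPS34 and NME3.

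**Figure D1:**
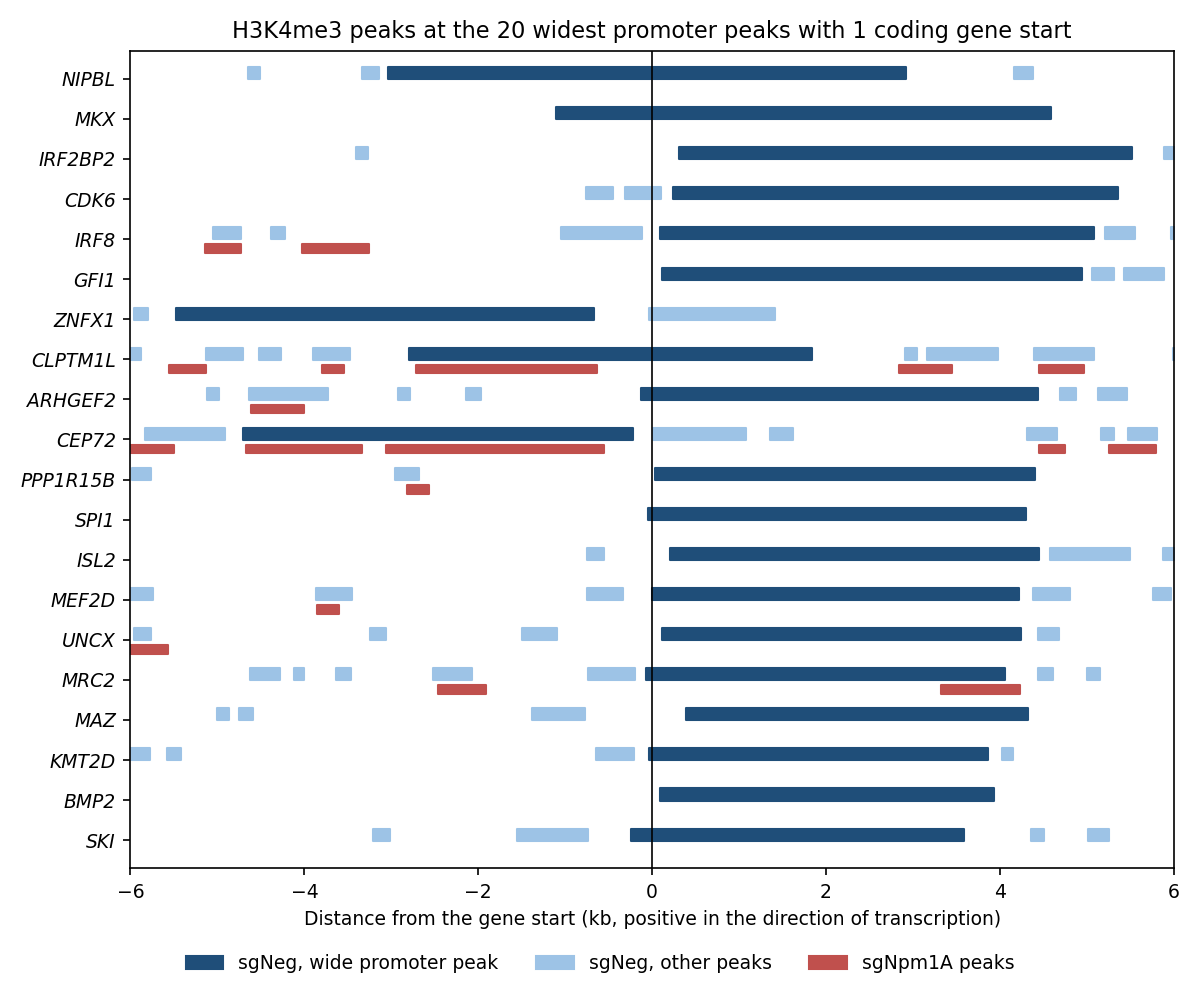
sgNeg H3K4me3 peaks (dark blue: the wide promoter peak, light blue: other peaks) and sgNpm1A H3K4me3 peaks (red) within 6 kb of the start of the 20 genes with the widest peak among members with 1 coding start, as distance in kb along the direction of transcription. Most dark bars begin at the start and run downstream, and red bars are found within 6 kb in 8 of the 20 genes.

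The widest member was at NIPBL, the loader of cohesin, on chromosome 5 from 36873736 to 36879687 (GRCh38). It spanned 5952 bp, with 3033 bp upstream and 2919 bp downstream of the start, which was unusual in reaching both ways. MKX, a homeobox gene, followed with 5694 bp and IRF2BP2, a corepressor that partners interferon regulatory factors, with 5214 bp. CDK6, the cyclin D-dependent kinase of G1, had 5125 bp, all of it downstream. IRF8, a factor of monocyte and dendritic cell fate, had 4991 bp (chromosome 16, 85899249 to 85904239), and GFI1 4833 bp (chromosome 1, 92481984 to 92486816). SPI1, which encodes the myeloid master factor PU.1, had 4340 bp (chromosome 11, 47374251 to 47378590), of which 4297 bp were downstream of the start. Among the 25 widest were also the transcription factors MEF2D (4219 bp), ISL2 (4238 bp), UNCX (4133 bp), HOXA10 (4078 bp, shared with the record of its read-through with HOXA9), MAZ (3931 bp) and IRX3 (3807 bp). Regulators of other kinds in this range were KMT2D (3894 bp), BRD9, a subunit of a BAF remodelling complex, with TRIP13 (3894 bp), SKI, a repressor of TGF-beta signalling (3825 bp), BMP2, a secreted ligand of that family (3844 bp), PPP1R15B, a subunit of the phosphatase that reverses eIF2 phosphorylation (4378 bp), and ARHGEF2, an activator of RhoA (4566 bp). MAF1 with SHARPIN (3989 bp), MRC2 (4125 bp) and CLPTM1L (4631 bp) completed the group with EME2, MRPS34 and NME3 (4643 bp), ZNFX1 and CEP72. At these last genes the wide peak was upstream of the start: that of ZNFX1 (4808 bp) lay 664 bp away, beyond a narrower peak at the start itself, and that of CEP72 (4485 bp) ended 216 bp before the start.

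Genes of haematopoietic identity were carried by wide peaks more often than coding genes at large. Of 69 haematopoietic regulators, 12 (17.4%, interval 10.2 to 28.0%) had one, beside 2.2% of all genes: IRF8, GFI1, SPI1, MEF2D, MYC, CEBPA, SOX4, MYB, CEBPD, RXRA, KLF13 and PBX3. Of these, IRF8, GFI1, SPI1, MYC, CEBPA, MYB, RXRA and PBX3 are also named by the study, mostly from these libraries. The share of this list is therefore not independent of the study's choice of genes. MYC had 3658 bp, CEBPA, a factor of granulocyte differentiation, 3587 bp, and SOX4 3146 bp. Of 21 HOXA and HOXB genes, 6 had a wide peak (28.6%, interval 13.8 to 49.96%), namely HOXA10, HOXB3, HOXB5, HOXA13 (2845 bp), HOXA9 (2566 bp) and HOXA11. HOXB3 and HOXB5 shared a peak of 3118 bp. No HOXC or HOXD gene of 18 did, and 1 of them had any promoter peak. Over 426 members of transcription factor families the share was 26 (6.10%), and of 509 numbered zinc finger genes 5 (0.982%) had a wide peak. The 5 were ZNF622 (3262 bp), ZNF777 (2396 bp), ZNF655 (2285 bp), ZNF623 (2159 bp) and ZNF384.

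Chromatin and signalling regulators were carried at similar shares. Wide peaks were at 12 of 95 chromatin regulators (12.6%, interval 7.38 to 20.8%), among them KMT2D, BRD9, AFF1, a partner of MLL in fusion proteins (2586 bp), KMT2E (2582 bp), CHD4, EP300, ARID1A and JARID2. Among 60 genes of signalling feedback and the cell cycle, 10 had one (16.7%, interval 9.31 to 28.0%). They included CDK6, the survival genes MCL1 (3047 bp) and BCL2 (2930 bp), ZFP36L2, an mRNA decay factor (2904 bp), SPRY2, CDKN1B and DUSP6. Of 46 myeloid surface, granule and receptor genes, 3 had a wide peak (6.52%): TNFRSF1A (2791 bp), CTSG, the granule protease cathepsin G (2515 bp), and CORO1A (2054 bp). Among 15 markers of the myeloid lineage 3 had a wide peak (SPI1, CEBPA and CTSG) and 10 a promoter peak of any width, a share near the 64.8% of all coding genes, and CD33, FLT3, KIT, LYZ and PRTN3 had none at the start of the gene record. Neither the 25 lymphoid markers, nor the 16 erythroid and megakaryocytic markers, nor the 29 markers of other tissues had a wide peak. With upper limits of 13.3%, 19.4% and 11.7%, these counts of 0 cannot be set apart from the 2.2% of all genes. A promoter peak of any width was at 13 (52.0%), 5 (31.25%) and 13 (44.8%) of them. There was also no wide peak at 386 olfactory receptors (upper limit 0.985%) and 149 keratins and keratin-associated proteins (2.51%).

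Among housekeeping genes the wide peaks were mostly at genes of translation and splicing. Cytosolic ribosomal proteins had a wide peak at 13 of 85 genes (15.3%, interval 9.16 to 24.4%), a share close to that of the haematopoietic regulators. RPL23 (2811 bp), RPS18 (2714 bp, shared with VPS52), RPL37 (2476 bp) and RPL8 (2424 bp) were the widest. Spliceosome and SR proteins had 6 of 72 (8.33%), with HNRNPD (3045 bp), U2AF2 (2403 bp), SRSF3 (2371 bp) and SRSF2 (2364 bp, shared with MFSD11), and translation initiation factors 4 of 55 (7.27%), namely EIF4G1 (2273 bp), EIF4A2 (2217 bp), EIF3A (2060 bp) and EIF4A3 (2028 bp). The counts were 0 of 39 proteasome subunits (upper limit 8.97%), 0 of 36 subunits of respiratory complex I (9.64%) and 0 of 37 tRNA synthetases (9.41%), which at these list sizes cannot be set apart from the 2.2% of all genes. Mitochondrial ribosomal proteins had 3 of 77 (3.90%: MRPS34, MRPL43 and MRPS7), RNA polymerase II and general factors 2 of 78 (TAF4 and MED13), and replication-dependent histones 2 of 69 (H2AC6 and H2BC4, which share 1 peak). Together the regulator lists without zinc fingers had 48 of 588 genes (8.16%, interval 6.21 to 10.7%) and the housekeeping lists 30 of 548 (5.47%, interval 3.86 to 7.71%), and these intervals overlap. The remaining 345 genes were in no list and made up 1.99% of 17329 such genes.

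The shares moved with the width limit. At 1500 bp, 26.1% of haematopoietic regulators and 38.8% of cytosolic ribosomal protein genes had a wide peak, beside 6.31% of all genes. At 2000 bp the shares were 17.4% and 15.3% beside 2.2%, and at 3000 bp they were 10.1% and 0% beside 0.372%. The 0 of 85 ribosomal protein genes at 3000 bp is near the share of all genes. Their median width was 1304.5 bp over 84 genes with a peak, beside 706 bp over all genes. Of 13 genes taken from the study, which names them for chromatin or, for PBX3, as a cofactor of HOXA9, 11 had a wide peak, but most of that set was named by the study from these libraries, so it is not independent evidence. Most of the 11 were also counted among the haematopoietic regulators, HOXA9 among the HOXA and HOXB genes, and MCL1 and BCL2 among the signalling genes. MEIS1 (339 bp) and RARA (211 bp) were the other two, at the start of the gene record alone.

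**Figure D2:**
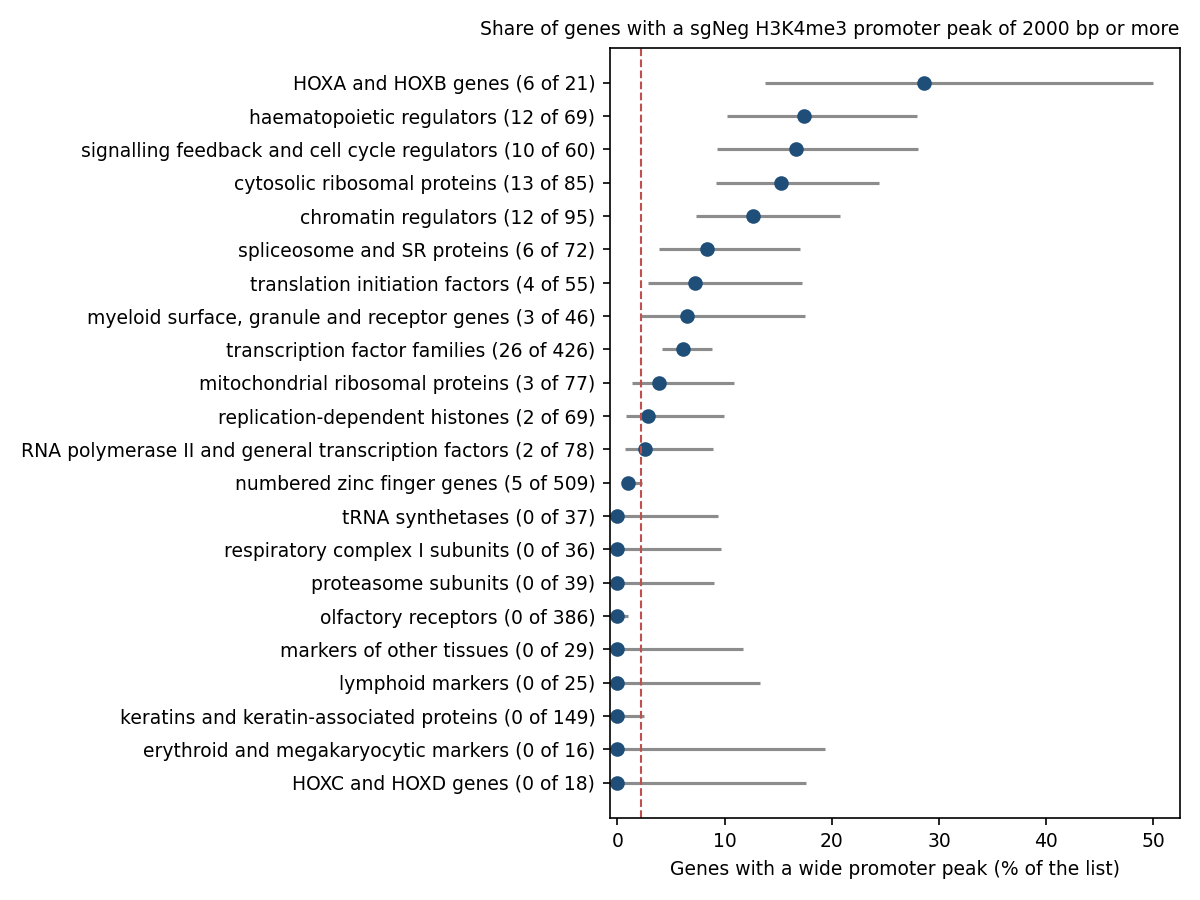
Percent of the genes of each list with a sgNeg H3K4me3 promoter peak of 2000 bp or more (points) with 95% Wilson intervals (lines), and the share over all protein-coding genes, 2.2% (dashed line). HOXA and HOXB genes, haematopoietic regulators, signalling genes, cytosolic ribosomal proteins and chromatin regulators lie at 12.6 to 28.6%, and 9 lists have no gene with a wide peak.

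Little of these peaks was found again in the sgNpm1A H3K4me3 list. A sgNpm1A peak overlapped 43 of the 360 members by at least 1 bp (11.9%, interval 8.99 to 15.7%), beside 7.74% of all promoter peaks and 7.65% of the narrower ones. An overlap of 1 bp is easier to meet for a wider peak, and the median widths were 2372 bp and, for the narrower ones, 445 bp. These shares are therefore not a like comparison. By bases the members and the narrower promoter peaks were alike, with 4.03% and 3.97% of bases covered, but this moved with the limits: with rows of q under 1e-05 the shares were 2.86% and 1.39%. The DNA 5 to 10 kb on either side of the members had 6.79% of its bases under sgNpm1A peaks, so that the members held less than their own surroundings. The 298 sgNeg peaks of the same width away from coding starts differed, as 236 (79.2%) were overlapped and 64.7% of their bases were covered. Over the 288 members with 1 start, sgNpm1A coverage was lowest at the start, with 0.61 to 0.98% of bases from 300 bp before to 400 bp after it, and was 4.53% at 2.0 kb downstream. Of the 431 genes with a wide peak, 3 starts (0.696%, interval 0.237 to 2.03%) lay under a sgNpm1A peak, against 2.21% of 12281 starts of genes with a narrower peak and 1.03% of 6905 starts of genes with none.

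**Figure D3:**
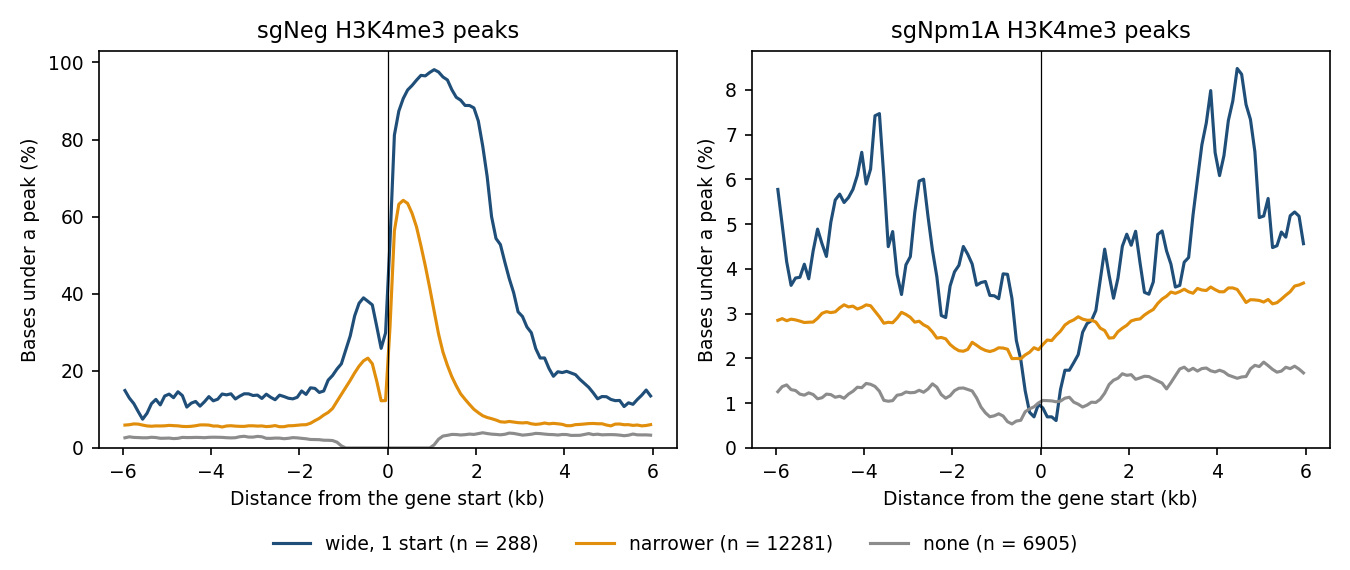
Percent of bases under sgNeg (left) and sgNpm1A (right, with its own scale) H3K4me3 peaks in 100 bp bins within 6 kb of gene starts, for the 288 starts that have a wide peak to themselves (blue), 12281 genes with a narrower promoter peak (orange) and 6905 genes with none (grey). In sgNeg the blue line reaches 98.1% at 1.0 kb downstream, which follows largely from the choice of members, and in sgNpm1A it is lowest around the start, below 1%.

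The sgNpm1A peaks over members were low and short beside the sgNeg peaks there, which were chosen for their width. The highest sgNpm1A peak over each of the 43 members had a fold of 2.80 to 6.87, with a median of 4.32. Its pileup was 10 to 26 fragments. Its median width was 728 bp, beside 407 bp over the whole sgNpm1A list, where the lowest fold was 2.80. In 5 members a sgNpm1A peak of 2000 bp or more lay over the wide peak, out of 912 such peaks in the sgNpm1A list. At 8 members at least 50% of the bases were covered, namely NKD2 (96.5%), GPIHBP1, which carries lipoprotein lipase across the endothelium (93.9%), CLPS, pancreatic colipase (89.5%), CEP72 (85.8%), RXFP3, a relaxin receptor (79.4%), SLC9A3, an epithelial sodium-proton exchanger (75.1%), TERT, the catalytic subunit of telomerase (72.5%), and LAD1, a basement membrane protein (65.9%). After these came LRRC14 with RECQL4 (47.7%) and CLPTM1L (44.8%). At NKD2 the sgNeg peak had a fold of 6.03 and a pileup of 28, and the sgNpm1A peak a fold of 5.85 and a pileup of 22. At GPIHBP1 the folds were 4.78 and 5.09, and at CLPS 6.45 and 5.34. At TERT they were 5.41 and 4.83. Of these 8, 7 had a sgNeg fold under 7, which held for 27 of all 360 members. CEP72, with a fold of 14.1 in sgNeg and 6.61 in sgNpm1A, was the exception.

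The covered members were gathered in the first 50 Mb of chromosome 5 and on chromosome 8. In the first 50 Mb of chromosome 5, 24 of 242 promoter peaks were wide (9.92%), 12 of these 24 were overlapped and 23.6% of their bases were covered, with NKD2, CEP72, RXFP3, SLC9A3, TERT, CLPTM1L and BRD9 among them. On chromosome 8, 10 of 33 members were overlapped (10.0% of bases). On chromosome 17 there were 5 of 32 (3.85%), where the share of bases was below the 4.03% of all members. For chromosomes 1 and 6, counted below as elsewhere, it was 6 of 48 (3.47%) and 1 of 16 (4.91%). Of the 271 members elsewhere, 16 were overlapped (5.90%, interval 3.67 to 9.37%) and 1.34% of bases were covered, beside 6.26% and 2.93% for narrower promoter peaks elsewhere. The narrower promoter peaks of the first 50 Mb of chromosome 5 were also covered more, at 30.1% of bases, and the fold values carry no local correction. On chromosomes 8 and 17 the narrower promoter peaks had 12.6% and 4.34% of bases covered, above the shares of the members there. The part of these regions in what was found again was not tested beyond these values.

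**Figure D4:**
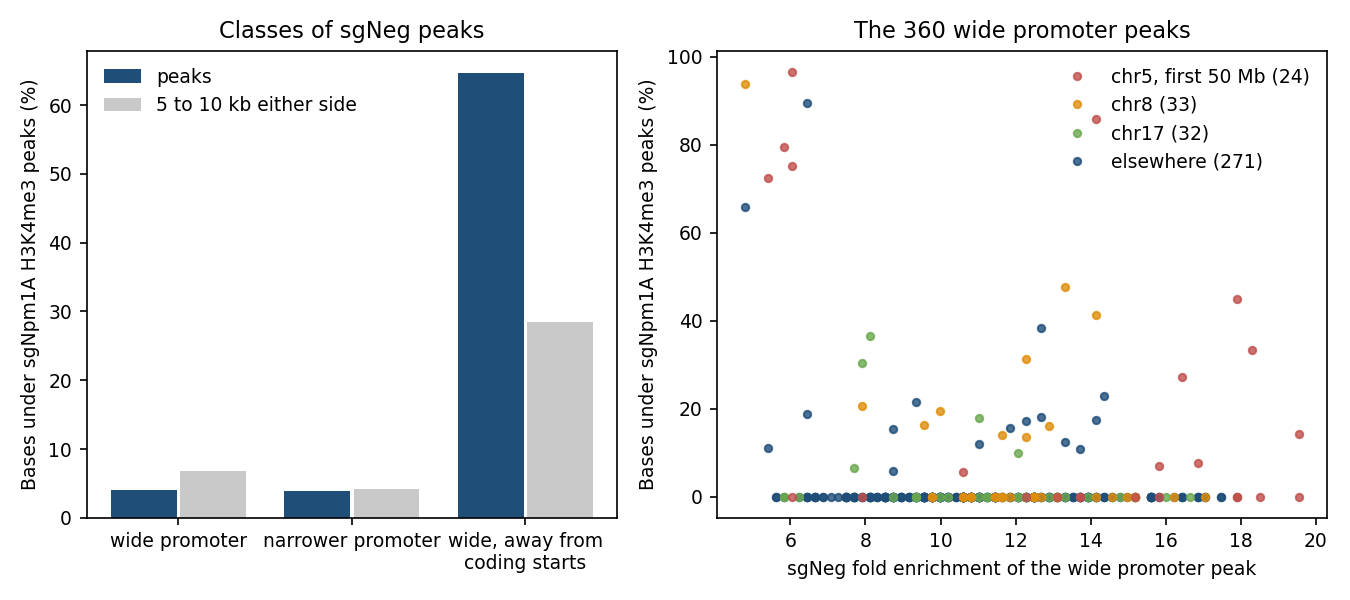
Left: percent of bases under sgNpm1A H3K4me3 peaks for 3 classes of sgNeg peaks (blue) and for the DNA 5 to 10 kb on either side (grey). Right: the same percent for each of the 360 wide promoter peaks against its sgNeg fold enrichment, coloured by place, where most points lie at 0 and the highest points lie at a sgNeg fold under 7.

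Identity genes were not among the members found again. None of the 12 haematopoietic regulators with a wide peak, of the 6 HOXA and HOXB genes, of the 10 signalling genes and of the 11 genes taken from the study had a sgNpm1A peak over it, and neither did any of the 13 cytosolic ribosomal protein genes, the 6 spliceosome genes or the 4 translation initiation factors. At a share of 11.9% over all members these counts of 0 are small: 0 of 13 genes allows a share of up to 22.8%, so a difference from the other members was not detectable. BRD9 (27.2% of bases), MRPS7 (9.96%) and ZNF623 (14.0%) were the list genes with a sgNpm1A peak. At NPM1 itself the sgNeg peak was 2657 bp wide with a pileup of 50, and at XPO1, which exports NPM1 from the nucleus, 2639 bp with a pileup of 51, and neither was overlapped. A promoter peak shows no edited sequence and does not check the guide RNA.

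H3K27Ac, which marks active promoters and enhancers and was no part of the choice of members, was compared by gene symbol, because its lists are on GRCh37. The tag in the names of the lists differs between the marks, with no meaning given, so that another run or another cell line cannot be told apart. A promoter peak was the widest within 1 kb of any transcript start, and 421 of the 431 genes were matched. In sgNeg, 420 of 421 genes with a wide H3K4me3 peak had a H3K27Ac promoter peak (99.8%), with a median width of 5545.5 bp, and 95.0% had one of 2000 bp or more. Of 12022 genes with a narrower H3K4me3 peak 94.8% had one, with a median of 1828 bp, and of 6611 genes without a H3K4me3 peak 52.1%, with a median of 840 bp. The H3K27Ac width followed the H3K4me3 width beyond the limit as well. Its median was 3600 bp for H3K4me3 peaks from 1500 to below 2000 bp, 4964 bp from 2000 to below 3000 bp, and 9158 bp for 3000 bp or more.

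Among genes with a wide H3K4me3 peak, regulators had wider H3K27Ac peaks than housekeeping genes. The 48 regulator genes had a median H3K4me3 width of 2584 bp and a median H3K27Ac width of 7339 bp, and 20 of them (41.7%) had 10000 bp or more, beside 99 of all 421 genes (23.5%). Without the 6 HOX genes it was 14 of 42 (33.3%), with a median of 6242 bp. The 30 housekeeping genes had a median H3K4me3 width of 2288 bp and a median H3K27Ac width of 4157.5 bp, and 0 reached 10000 bp, with a highest width of 9017 bp. For the 12 haematopoietic regulators the median was 10813 bp, from 2911 bp at PBX3 to 42939 bp at IRF8, with 15908 bp at CEBPA, 21514 bp at MYB and 24575 bp at RXRA. The wide HOXA genes lay under 1 H3K27Ac peak of 51584 bp and the HOXB genes under 1 of 59874 bp, so that these are not separate values. For the 13 cytosolic ribosomal protein genes the median was 3878 bp, from 2222 to 9017 bp. Toward the ends of these ranges, IRF8 and RPL23, with unlike H3K4me3 widths of 4991 and 2811 bp, had H3K27Ac peaks of 42939 and 2734 bp. The ranges overlapped, and the pair of PBX3 (2911 bp) and RPL8 (9017 bp) went the other way. At list genes with a narrower H3K4me3 peak the median H3K27Ac widths were alike, with 2389.5 bp for regulators and 2374.5 bp for housekeeping genes. Of these, 25 of 351 regulators (7.12%) and 19 of 442 housekeeping genes (4.30%) had 10000 bp or more.

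**Figure D5:**
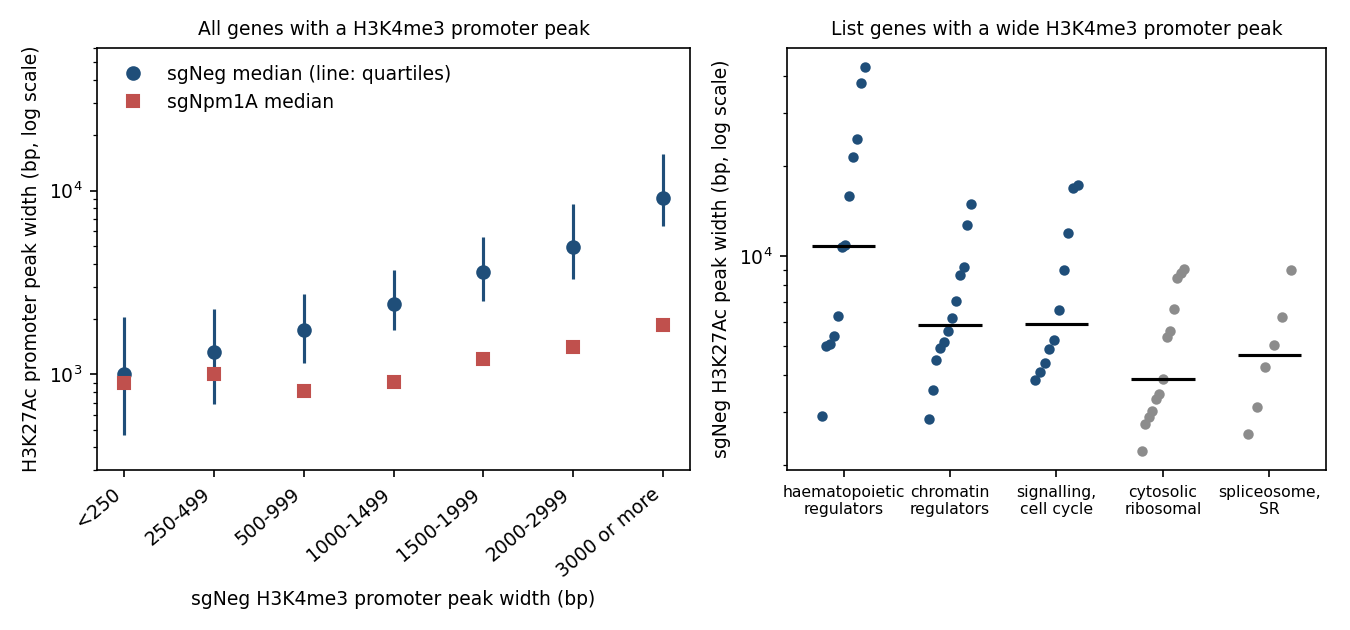
Left: width of the H3K27Ac promoter peak in bp (log scale) by the width of the sgNeg H3K4me3 promoter peak, as the median with quartiles in sgNeg (blue) and the median in sgNpm1A (red), over genes with a H3K27Ac peak. Right: sgNeg H3K27Ac peak width (log scale) of each list gene with a wide H3K4me3 promoter peak (points) with the median (bars), where 3 regulator lists (blue) have medians of 5889 to 10813 bp and 2 housekeeping lists (grey) of 3878 and 4644 bp.

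In the sgNpm1A H3K27Ac list more of these genes had a peak than in the sgNpm1A H3K4me3 list, but the measures differ. H3K27Ac was counted within 1 kb of any transcript start, and H3K4me3 over the member or at the start of the gene record. A H3K27Ac promoter peak was found at 323 of 421 genes (76.7%, interval 72.5 to 80.5%), with a median width of 1450 bp, and at 65.0% of genes with a narrower H3K4me3 peak, with a median of 904 bp. The peak was 2000 bp or wider at 27.6% of genes with a wide and 13.3% of genes with a narrower H3K4me3 peak. Over all 19054 matched genes, 58.2% had a sgNpm1A H3K27Ac promoter peak, beside 80.1% in sgNeg. The median widths were 830 and 1677 bp, and the median folds 2.99 and 3.83. Lower values in sgNpm1A were thus not particular to the genes named next. Haematopoietic regulators had a H3K27Ac peak in 8 of 12 genes with a median of 713.5 bp. IRF8 had 604 bp against 42939 bp in sgNeg, GFI1 339 bp against 10756 bp, SPI1 668 bp against 6304 bp and MYC 759 bp against 5402 bp, while CEBPA and MYB had no peak. RXRA had 2415 bp against 24575 bp and MEF2D 4596 bp against 38049 bp. All 12 chromatin regulators had one, with a median of 1118.5 bp. Of the 13 cytosolic ribosomal protein genes 9 had one, with a median of 488 bp.

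The members with a sgNpm1A H3K4me3 peak also stood apart in H3K27Ac. Of their 52 matched genes, 50 had a sgNpm1A H3K27Ac promoter peak (96.2%), with a median width of 4720 bp against 8439 bp in sgNeg, and 42 (80.8%) had one of 2000 bp or more. Of the 369 genes of the other members, 273 had one (74.0%), with a median of 1089 bp against 5260.5 bp, and 20.1% reached 2000 bp. The H3K27Ac peak was wider in sgNpm1A than in sgNeg at 7 of the 52 genes (13.5%, interval 6.68 to 25.3%) and at 7 of the 369 (1.90%, interval 0.922 to 3.86%). The 52 genes belong to 43 members, and genes that share a member are not separate values, so these intervals are too narrow. At NKD2 it was 6855 bp wide in sgNeg and 11084 bp in sgNpm1A and at TERT 3244 and 6217 bp, whereas at CEP72 it was 8181 and 6152 bp and at CLPTM1L 17595 and 7855 bp. Within chromosomes 8 and 17 and the first 50 Mb of chromosome 5, 45.9% of genes with a wide H3K4me3 peak had a sgNpm1A H3K27Ac peak of 2000 bp or more, and elsewhere 21.2%.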

How the data were processed

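H3K4me3 and H3K27Ac were mapped in OCI-AML3 cells, and groups were taken from the labels. The submitters' processing notes name bcl2fastq 2.17, Trimmomatic 0.33, Bowtie 1.1.2, MACS2 2.1.0 and deepTools, with hg38. MACS2 options, and whether inputs entered the calls, were not given in the sources used here. The authors called peaks in each library separately. The deposited enrichment is a fold, that is a ratio of observed over expected pileup, and refers to the summit of a H3K4me3 peak and to the mean over a H3K27Ac region. Each deposited −log10 p-value and q-value refers to the same place, and the deposited score is the rounded −log10 q-value and was not used. H3K4me3 fold values gave whole pileups for 100% of peaks with 1 constant background per list, so they carry no local correction. The last peak on chromosome 17 ended at 83201880 in the sgNeg H3K4me3 list (GRCh38), and that on chromosome 1 at 249218478 in the sgNeg H3K27Ac list (GRCh37). No coordinates were converted.

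Peaks on chromosomes 1 to 22 and X were used and gene starts were those of RefSeq gene records (GRCh38.p14), for 19617 of 19970 protein-coding genes whose strand was given by the RefSeq promoter table or by GENCODE. H3K27Ac peaks were joined to genes by symbol through GENCODE transcripts on GRCh37. An overlap was at least 1 bp. Named genes were the 25 widest members, up to 4 per list by width, the 10 members with most bases under sgNpm1A peaks, 3 on either side of the width limit and 13 genes taken from the study. Other list members are named as parts of small counts. NPM1, XPO1 and the genes under other observations were named outside this rule. The members, lists and alternatives were chosen with earlier results of these data known. Depth in reads is unknown. No test across peaks or genes was run, and intervals are 95% Wilson intervals, in which genes that share a peak count separately. Python 3.11.15, pandas 2.3.3, numpy 2.4.6, scipy 1.17.1 and matplotlib 3.10.9 were used, and the overlap and width steps were tested on simulated data.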

Additional observations from a re-analysis of the deposited data

How the results depend on the processing

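No paired analysis was possible because each group has 1 library and no replicate number is shared, and for the same reason no library could be left out. With a width of 1500 bp or more there were 1061 members at 1238 genes, 8.67% were overlapped by sgNpm1A peaks, and 38.8% of ribosomal protein genes were carried, beside 6.31% of all genes. With 3000 bp or more there were 60 members at 73 genes, 16.7% were overlapped, and 10.1% of haematopoietic regulators and 0% of ribosomal protein genes were carried, beside 0.372% of all genes. With rows within 500 bp joined there were 1613 members at 2021 genes, 21.8% were overlapped, 11.0% of bases were covered, and 31.9% of haematopoietic regulators and 54.1% of ribosomal protein genes were carried, beside 10.3% of all genes. With the gene start inside the peak there were 137 members at 168 genes, 4.51% of narrower bases were covered, and 5.80% of haematopoietic regulators and 1.18% of ribosomal protein genes were carried, beside 0.856% of all genes. With rows of q under 1e-05, 5.56% of members were overlapped and 1.39% of narrower bases covered, and with the 20000 rows of lowest p these were 5.31% and 0.873%. Asking for 50% of the member gave 2.22% overlapped, for 1 kb around the summit 2.78%, and for 2 kb around the gene start 6.11%. Without chromosomes 8 and 17 and the first 50 Mb of chromosome 5, a choice made after seeing the data, 5.90% were overlapped and 1.34% of member bases and 2.93% of narrower bases were covered. The covered share of member bases was thus above that of narrower peaks under the strict limits and below it without these chromosomes. The cause of these moves was not tested beyond the construction of each alternative. Joining rows within 150 bp, a q under 0.01 and gene starts from the promoter table (added after seeing the data) left all results within 1.5 times or within the interval. The CpG ratio moved in no alternative (0.852 to 0.881).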

Other observations

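A few single homeobox genes with a wide promoter peak are given here, chosen after their values were seen. They were not picked by a fixed list, although LHX2 is also 1 of the 426 members of transcription factor families counted above. How many homeobox genes lack a wide peak was not counted, and of the 29 markers of other tissues 0 had one. Besides MKX, ISL2, UNCX and IRX3, they were IRX5 (3129 bp, pileup 53), NKX6-1, a factor of beta cells and motor neurons (2590 bp, pileup 39), LHX2 (2367 bp, pileup 47) and ONECUT2 (2363 bp, pileup 41). None was overlapped by a sgNpm1A H3K4me3 peak. Their sgNeg H3K27Ac promoter peaks were 27161 bp wide at MKX, 23572 bp at IRX3, 23128 bp at UNCX, 16209 bp at ISL2, 15627 bp at LHX2, 14556 bp at IRX5, 3463 bp at ONECUT2 and 3151 bp at NKX6-1. In sgNpm1A the H3K27Ac peaks were 161 bp at MKX, 194 bp at IRX5 and 744 bp at LHX2, and the other genes had none.

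The common reference genes GAPDH and ACTG1 were members as well, and how many other reference genes lack a wide peak was not counted. GAPDH had a wide peak of 2337 bp (pileup 59), and ACTG1 had one of 2106 bp (pileup 72) besides a wide peak that it shared with FSCN2. TNF, an inflammatory cytokine, had 2269 bp (pileup 52). The sgNeg H3K27Ac peaks at GAPDH, ACTG1 and TNF were 8315, 10378 and 12180 bp wide.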
